A study of Homo sapiens with 8 samples.

Results

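Small nucleolar RNA (snoRNA) host genes were followed across 8 RNA-sequencing libraries of MEL202, a human uveal melanoma line in which one allele of SF3B1, a splicing factor, is mutant. A list of 8 host genes was searched for by symbol among the 32087 loci of the deposited table: GAS5, SNHG1, SNHG5, SNHG6, SNHG7, SNHG8, SNHG12 and ZFAS1. The symbols SNHG5, SNHG6 and SNHG8 matched a locus name exactly, and ZFAS1 was found under its older symbol ZNFX1-AS1, so 4 of the 8 host genes are described. GAS5, SNHG1, SNHG7 and SNHG12 matched no locus name and were not analysed here as host genes. Each of the 4 genes had a mean value far above the minimum of 5 used for testing, and all 4 entered the tests with 8600 genes in all.

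The libraries came from 4 lines, each with and without Shld, a small ligand that stabilises proteins fused to a destabilising domain (a degron), so that its withdrawal leads to loss of the fused protein. These were parental MEL202 cells, cells with the mutant SF3B1 allele knocked out (the knockout line), cells with the domain on mutant SF3B1 (the mutant degron line), and cells in which wildtype SF3B1 bears it (the wildtype degron line). The series text calls the degron lines knockdowns of the mutant and of the wildtype protein. The labels give 2 days for the 6 libraries of the engineered lines and no time for the parental pair. In the deposited table the columns of the knockout line are named as cells that also carry the domain at wildtype SF3B1, with 4 days without Shld, and 4 days also stand in the name of the parental column without Shld. Each of the 8 groups had 1 library, and no separate culture or second clone of a line is named, so line and clone cannot be told apart.

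Host genes of this kind are transcribed for the snoRNAs in their introns. After splicing, the intron lariat is opened and trimmed to a mature snoRNA. Box C/D snoRNAs guide methylation of ribosomal RNA and box H/ACA snoRNAs guide its pseudouridylation. The exons form a second product, a spliced and capped transcript with little or no coding capacity, which is the RNA measured here. Many of these transcripts begin with a terminal oligopyrimidine (TOP) tract, as messages of ribosomal proteins do. Many are engaged by ribosomes and removed by nonsense-mediated decay, so their level depends on transcription, splicing and decay together.

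The start regions of SNHG5, SNHG8 and ZFAS1 are shown because these host genes share sequence features there that played no part in their choice. The windows run from 45 bases before to 35 bases from the annotated start, 5′ to 3′, and come from RefSeq on GRCh38.p14, where 7 of the 8 listed host genes were matched. Capitals mark TATAAG, which resembles the core promoter box of that name, and CTTT, a cytosine and thymines as at the start of a TOP tract. They are chr6:85678699-85678778 on the minus strand for SNHG5, chr4:118278717-118278796 on the plus strand for SNHG8 and chr20:49278597-49278676 on the plus strand for ZFAS1.
SNHG5: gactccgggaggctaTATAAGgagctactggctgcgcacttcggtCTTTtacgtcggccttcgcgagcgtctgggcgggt
SNHG8: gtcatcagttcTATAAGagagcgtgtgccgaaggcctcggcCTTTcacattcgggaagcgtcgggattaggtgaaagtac
ZFAS1: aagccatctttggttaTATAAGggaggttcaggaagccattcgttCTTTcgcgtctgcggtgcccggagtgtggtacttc

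TATAAG began 30 bases before the start of SNHG5, 34 before that of SNHG8 and 29 before that of ZFAS1. CTTT lay exactly at the annotated start of SNHG5 and of ZFAS1 and began 4 bases before that of SNHG8. Both motifs were chosen after these sequences had been seen. On the gene's strand TATAAG was present from base -45 to -16 in 1% of 35116 RefSeq promoters (0.458% on the other strand), and CTTT from base -10 to 14 in 10.7% (8.19% on the other strand). Both were present together in 42 promoters, or 0.12%. Among the 7 host genes matched, 4 held each motif: the 3 shown and SNHG12. The 2 motifs do not overlap each other, and a match describes letters only.

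The introns of the same genes carry the guide RNAs. One snoRNA per gene is shown 5′ to 3′ from GENCODE v29 on GRCh38, with the C box (TGATGA) and D box (CTGA) in capitals in the 2 box C/D snoRNAs and the ACA near the end in capitals in the H/ACA snoRNA. SNORD50B lies at chr6:85677589-85677658 on the minus strand and is intronic in 21 of 23 annotated SNHG5 transcripts. SNORA24 lies at chr4:118279190-118279320 on the plus strand and is intronic in 4 of 5 SNHG8 transcripts. SNORD12C lies at chr20:49278940-49279028 on the plus strand and is intronic in 8 of 10 ZFAS1 transcripts.
SNORD50B: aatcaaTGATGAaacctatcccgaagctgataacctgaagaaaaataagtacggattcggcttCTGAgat
SNORA24: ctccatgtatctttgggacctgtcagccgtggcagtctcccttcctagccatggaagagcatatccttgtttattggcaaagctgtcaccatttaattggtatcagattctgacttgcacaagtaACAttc
SNORD12C: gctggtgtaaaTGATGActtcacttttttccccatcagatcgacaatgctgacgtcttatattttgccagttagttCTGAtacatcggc

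Values are FPKM-type levels (fragments per length and library size) rescaled by the authors to a 75th percentile of 10 in every library, here called rescaled FPKM. The depth of the libraries is unknown. The low values gave 1.05 to 1.48 times as many fragments per unit in the other 7 libraries as in the parental library with Shld. The SF3B1 transcript was at 266 with Shld and 240 without it in parental cells. The knockout pair was at 158 and 138, the mutant degron pair at 248 and 252, and the wildtype degron pair at 188 and 201. Its level was lower in the knockout line with Shld than in parental cells with a log2 difference of -0.68 ± 0.18 (limma, adjusted p = 0.0065). A degron acts on protein, so this RNA level does not check the degron labels. All 7 melanocyte lineage markers measured were above 1 in all 8 libraries, all 4 epithelial and 3 endothelial markers were under 1, and the leukocyte marker PTPRC reached 1.22. Of 3 fibroblast markers COL1A2 and DCN were under 1 throughout, while LUM was listed at 29.6 and 20.7 in parental cells and lower in every other library. The wildtype degron pair was at 12.9 and 10.8, the mutant degron pair at 6.36 and 7.98, and the knockout pair at 1.66 and 1.61. The part of LUM-expressing cells in the host gene results was not tested.

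In MEL202 these were abundant transcripts. Over the 8 libraries SNHG5 averaged 1416 rescaled FPKM and SNHG6 1299, which placed them 68th and 74th of the 8600 genes tested. ZFAS1 averaged 291 (rank 332) and SNHG8 averaged 259 (rank 382). These levels are per transcript length, so they can be compared between genes, within the limits of short-transcript length estimates: the longest annotated transcripts measure 1032 bases for SNHG5, 648 for SNHG6, 672 for SNHG8 and 1075 for ZFAS1.

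SNHG5, the host of the box C/D snoRNAs SNORD50A and SNORD50B, was at 2793 with and 1814 without Shld in parental cells, in rescaled FPKM. It was at 1456 and 792 in the knockout pair, at 1589 and 1527 in the mutant degron pair, and at 774 and 580 in the wildtype degron pair. Its highest library was parental with Shld and its 2 lowest were the wildtype degron pair, a 4.81-fold range. The knockout library without Shld, at 792, lay only just above the wildtype degron pair.

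SNHG6, the host of the box C/D snoRNA SNORD87, was at 1880 with and 1510 without Shld in parental cells, at 1461 and 1129 in the knockout pair, at 1353 and 1285 in the mutant degron pair, and at 869 and 906 in the wildtype degron pair. The order of the lines was the same as for SNHG5 at the ends, with parental cells highest and the wildtype degron line lowest, over a smaller 2.16-fold range.

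ZFAS1, an antisense host of 3 box C/D snoRNAs (SNORD12, SNORD12B and SNORD12C) at the start of ZNFX1, was at 509 with and 339 without Shld in parental cells. The knockout pair was at 282 and 290, the mutant degron pair at 321 and 275, and the wildtype degron pair at 137 and 176. The 2 wildtype degron libraries again lay below the other 6. Whether the authors counted by strand is not given in the sources used here, and without strand, reads of ZFAS1 and of ZNFX1 cannot be told apart where they overlap.

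SNHG8, the host of the H/ACA snoRNA SNORA24, was at 316 with and 284 without Shld in parental cells. The knockout pair was at 294 and 346, the mutant degron pair at 220 and 232, and the wildtype degron pair at 185 and 195. It differed from the other host genes in that its highest library was the knockout line without Shld. Its lowest 2 were again the wildtype degron pair.

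**Figure D1:**
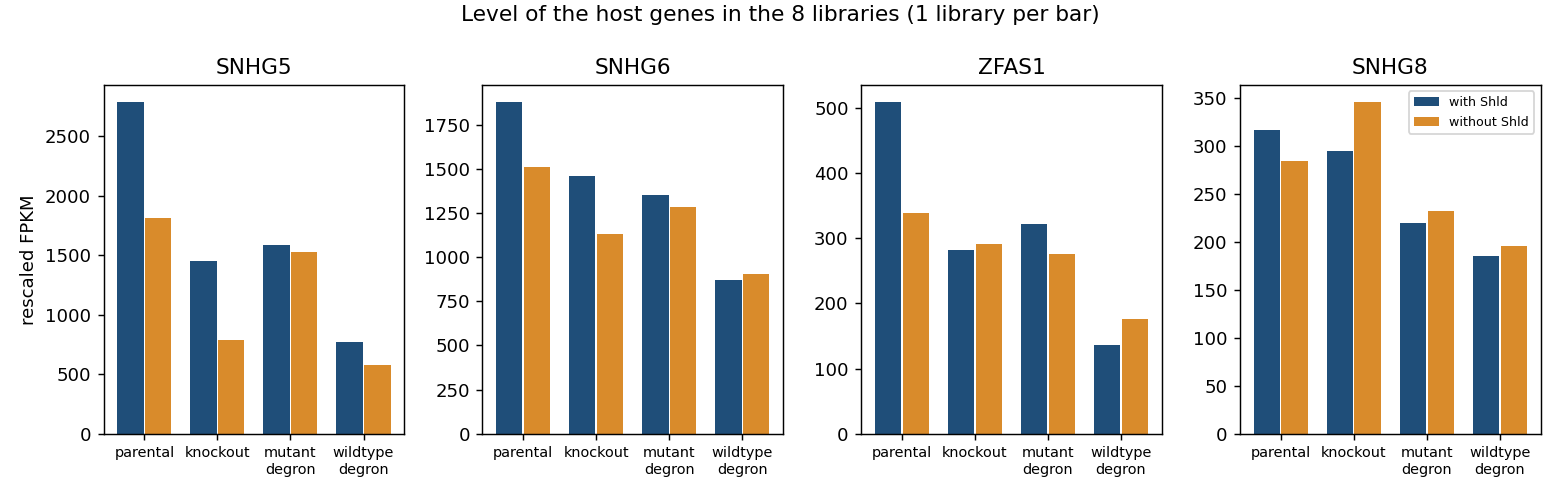
Level of SNHG5, SNHG6, ZFAS1 and SNHG8 in each of the 8 libraries; the vertical axis is rescaled FPKM from 0, each bar is 1 library, blue with Shld and orange without, so there are no error bars. In all 4 panels the wildtype degron pair is lowest (580 and 774 for SNHG5), and parental cells with Shld are highest except for SNHG8.

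Both wildtype degron libraries thus lay below the other 6 for 4 of 4 host genes, an arrangement that 23.3% of the 8600 genes showed. Parental cells with Shld were the highest library for 3 of 4, against 20.8% of all genes. Across the 8 libraries, SNHG5 and SNHG6 (Pearson r = 0.95) and SNHG6 and ZFAS1 (r = 0.95) were most alike on the log2 scale, and SNHG5 and SNHG8 least (r = 0.47). These correlations describe libraries that share lines and scaling and carry no test. The level of SNHG5 relative to SNHG6 was not constant: the ratio was 1.49 in parental cells with Shld and 1.20 without, 1.17 and 1.19 in the mutant degron pair, 0.997 and 0.702 in the knockout pair, and 0.890 and 0.641 in the wildtype degron pair.

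The wildtype degron line was compared with parental cells to ask what the engineered line had changed before the tagged protein was withdrawn. All 4 host genes were lower in the wildtype degron line with Shld. The difference on the log2 scale was -1.60 ± 0.22 (standard error of the model) for ZFAS1 (limma, adjusted p = 1.89e-05) and -1.54 ± 0.31 for SNHG5 (limma, adjusted p = 0.00067). It was -0.95 ± 0.30 for SNHG6 (limma, adjusted p = 0.0147) and -0.69 ± 0.19 for SNHG8 (limma, adjusted p = 0.0069). Of all 8600 genes, 18.4% were called lower and 36.2% were called in either direction, so a call by itself was common in this comparison. The median difference was -1.25 for the 4 host genes and 0.01 for all genes.

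Library by library, SNHG5 was 3.61-fold higher in parental cells than in the wildtype degron line with Shld and 3.13-fold higher when both lacked it. For ZFAS1 these ratios were 3.73 and 1.93, for SNHG6 2.16 and 1.67, and for SNHG8 1.71 and 1.45. All 4 ratios were smaller between the libraries without Shld, where the parental level was itself lower.

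These calls rest on 1 wildtype degron library and on the spread of the parental pair. With the spread taken from the knockout pair instead and both parental libraries kept, a fit added after the data had been seen, 3 of 4 were called and SNHG5 was at the threshold (limma, adjusted p = 0.0502). Without the parental library with Shld, and with that same spread, the differences were -1.23 for SNHG5, -0.80 for SNHG6, -0.62 for SNHG8 and -1.30 for ZFAS1, and 0 of 4 were called (limma, adjusted p from 0.165 to 0.199), with 2 of all 8600 genes called. Without the parental library without Shld, with the knockout spread, 3 of 4 were called and SNHG8 was not (limma, adjusted p = 0.051). When all 12921 loci with a mean of at least 1 entered, 0 of 4 were called (limma, adjusted p from 0.138 to 0.139) and 1 locus was called in all.

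Transcript length and level moved with the same comparison. Spearman's correlation across genes between the difference and the longest annotated transcript was 0.38 over 8465 genes (98.4% of those tested). It was 0.28 for the mutant degron line and 0.24 for the knockout line against the same parental cells, and 0.24 within the parental pair. The 323 genes of up to 1100 bases, the class of all 4 host genes, had a median difference of -0.40 in the wildtype degron line, with 79.6% of them below 0, while the 2449 genes over 5000 bases had a median of 0.21. The 88 genes with a mean of at least 1000 rescaled FPKM, SNHG5 and SNHG6 among them, had a median of -0.73. The share of all rescaled FPKM in ribosomal protein genes was 13.3% and 12.9% in the wildtype degron libraries and 17.8% to 22.5% in the other 6. In a fit with a curve on transcript length removed from each library, chosen after the data had been seen, 2 of 4 host genes were called: SNHG5 at -1.15 (limma, adjusted p = 0.0045) and ZFAS1 at -1.22 (limma, adjusted p = 0.00062). In that fit SNHG6 was at -0.44 (limma, adjusted p = 0.19) and SNHG8 at -0.18 (limma, adjusted p = 0.45).

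**Figure D2:**
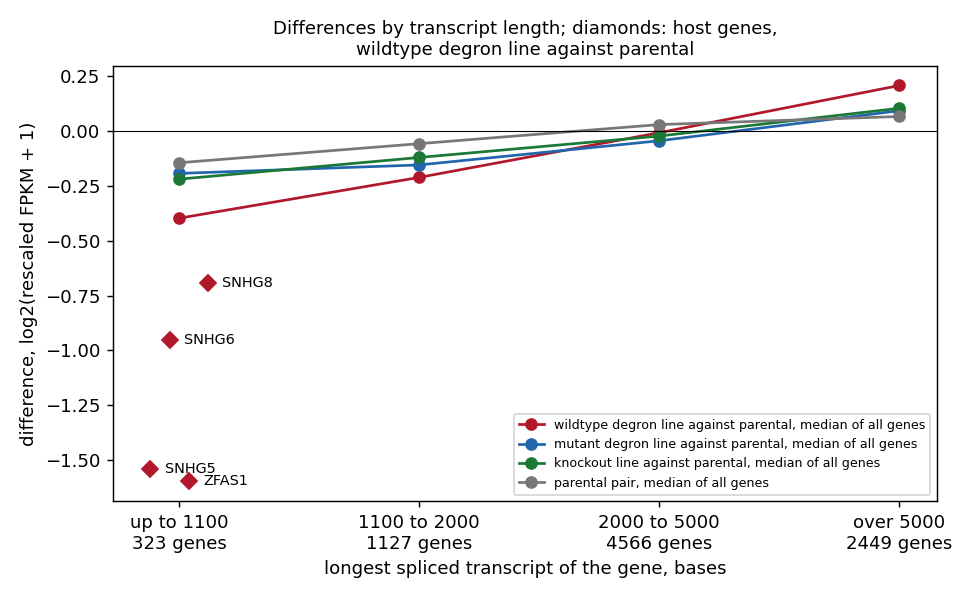
Differences by length of the longest annotated transcript; the horizontal axis has 4 length classes with their gene numbers, the vertical axis is the difference on the log2(rescaled FPKM + 1) scale. Lines join the medians of all genes in each class for 3 lines against parental cells and for the parental pair, and diamonds are the 4 host genes in the wildtype degron line against parental cells, spread sideways for legibility within the class of up to 1100 bases. The host genes lie below that class's median of -0.40.

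Between the 2 degron lines, both with Shld, the host genes were again lower where the domain was on wildtype SF3B1, with 2 of 4 past the threshold. The difference was -1.23 ± 0.25 for ZFAS1 (limma, adjusted p = 0.00068) and -1.04 ± 0.36 for SNHG5 (limma, adjusted p = 0.029). SNHG6 was at -0.64 ± 0.34 (limma, adjusted p = 0.15) and SNHG8 at -0.25 ± 0.22 (limma, adjusted p = 0.40). Of all genes, 17% were called lower and 34.7% in either direction. SNHG5 was not called in 5 of the alternative fits, with the same difference of -1.04 in each. What changed was the estimate of the spread and, with all loci, also the number of genes tested. The limma adjusted p was 0.125 with the spread of both pairs, 0.148 with that of the knockout pair and 0.200 with all loci. ZFAS1 was not called when all loci entered (limma, adjusted p = 0.14), and with quantile normalization SNHG6 was called as well, at -0.61 (adjusted p = 0.032).

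The mutant degron line and the knockout line each stood below parental cells for 4 of 4 host genes, without a call. In the mutant degron line 54.4% of all genes were below 0, and 78.3% of those of up to 1100 bases. For the knockout line these shares were 51.8% and 76.5%. Because both comparisons use the same parental libraries as the one above, the values are given side by side only. In the mutant degron line with Shld the differences were -0.50 ± 0.31 for SNHG5, -0.32 ± 0.30 for SNHG6, -0.45 ± 0.19 for SNHG8 and -0.37 ± 0.22 for ZFAS1. None of the 4 was called by limma, with 1 of them, SNHG8, at an unadjusted p under 0.05 (adjusted p = 0.11), whereas 20.7% of all genes were called. An unadjusted p under 0.05 was reached by 2752 of the 8600 genes. In the knockout line with Shld the differences were -0.63 ± 0.31 for SNHG5, -0.21 ± 0.30 for SNHG6, -0.03 ± 0.19 for SNHG8 and -0.56 ± 0.22 for ZFAS1. Again 0 of 4 were called by limma, ZFAS1 being at an unadjusted p of 0.0174 (adjusted p = 0.058), against 29% of all genes. Here 3373 of all genes reached an unadjusted p under 0.05. Fits whose spread used the knockout pair compared the mean of both knockout libraries, with and without Shld, with parental cells. In these, with both parental libraries kept, SNHG5 was at -1.07. It was called with the spread of both pairs (limma, adjusted p = 0.036) but not with that of the knockout pair (limma, adjusted p = 0.053). ZFAS1 was at -0.54 and was called with the knockout spread (limma, adjusted p = 0.023). Without the parental library without Shld, ZFAS1 was at -0.83. The sign of SNHG8 in the knockout line depended on the fit and on the libraries compared: it was positive, between 0.01 and 0.24, in 6 alternatives. The fits that pooled both knockout libraries were among these, SNHG8 being at 294 with and 346 without Shld.

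Withdrawal of Shld asked whether loss of the tagged SF3B1 protein changed host gene levels within a line. No host gene passed the threshold in any of the 3 engineered lines. Among the 12 tests by limma, 1 had an unadjusted p under 0.05. This was SNHG5 in the knockout line, which went from 1456 to 792 rescaled FPKM, a difference of -0.88 ± 0.36 (unadjusted p = 0.0226, limma, adjusted p = 0.25). In this comparison 2.76% of all genes were called, and 1126 of the 8600 were at an unadjusted p under 0.05.

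In the wildtype degron line, SNHG5 was at -0.41 ± 0.36 after withdrawal, SNHG6 at 0.06 ± 0.34, SNHG8 at 0.08 ± 0.22 and ZFAS1 at 0.36 ± 0.25, with 0.093% of all genes called by limma and 341 of them at an unadjusted p under 0.05. In the mutant degron line the values were -0.06 ± 0.36 for SNHG5, -0.07 ± 0.34 for SNHG6, 0.08 ± 0.22 for SNHG8 and -0.22 ± 0.25 for ZFAS1, with 0.0465% of genes called and 146 at an unadjusted p under 0.05. Standard errors of 0.22 to 0.36 leave differences of their own size undetectable. The response to withdrawal differed most between the 2 degron lines for ZFAS1, by 0.58 ± 0.36, but none of the 4 differences was called (limma, unadjusted p from 0.12 to 0.999), against 0.244% of all genes. In the knockout line, SNHG6 was at -0.37 ± 0.34, SNHG8 at 0.23 ± 0.22 and ZFAS1 at 0.04 ± 0.25.

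Parental cells carry no degron by their labels, so their pair gives the background of the withdrawal. Without Shld all 4 host genes were lower there: SNHG5 by a difference of -0.62, ZFAS1 by -0.59, SNHG6 by -0.32 and SNHG8 by -0.16. In this pair 44.2% of all genes were lower without Shld, and the median over all genes was 0.03. Among genes of up to 1100 bases, the class of all 4 host genes, 72.8% were lower, with a median of -0.14. Of genes with a mean of at least 1000 rescaled FPKM, SNHG5 and SNHG6 among them, 79.5% were lower, with a median of -0.26. The pair supplies the spread of the model and has no test of its own. For each of the 4 genes the difference within the parental pair was larger in absolute size than that after withdrawal in either degron line.

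**Figure D3:**
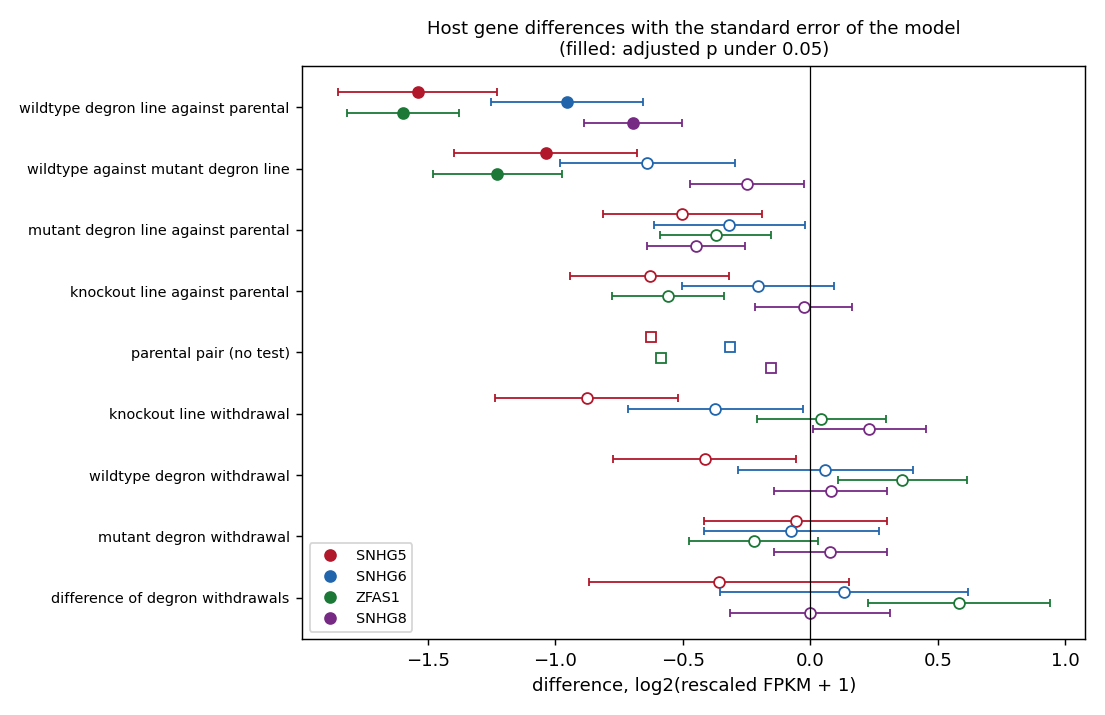
Differences of the 4 host genes in each comparison; the horizontal axis is the difference on the log2(rescaled FPKM + 1) scale, circles are model estimates with bars of 1 standard error, filled where the limma adjusted p was under 0.05, and squares are the parental pair without Shld less with Shld, which has no test. Filled circles occur only for the wildtype degron line against parental cells (4 genes) and against the mutant degron line (2 genes).

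Other genes of the pathway were followed from lists of noncoding hosts, protein-coding hosts, TOP translation genes, snoRNP proteins and decay factors. Among 3 other noncoding hosts tested of 19 listed, all 3 were lower in the wildtype degron line than in parental cells (limma, adjusted p under 0.05). Of all genes, 18.4% were called lower in that comparison. EPB41L4A-AS1, host of an H/ACA snoRNA, went from 42.9 and 37.4 rescaled FPKM in the parental pair to 20.4 and 20.2 in the wildtype degron pair, a difference of -0.94 ± 0.15 between the line with Shld and parental cells (limma, adjusted p = 6.8e-05). SNHG10 was at -0.80 ± 0.17 (adjusted p = 0.0010) and SNHG9 at -0.39 ± 0.15 (adjusted p = 0.045). Unlike the 4 described genes, SNHG9 had its lowest library in the knockout line with Shld, where it was also called lower (-0.49 ± 0.15, limma, adjusted p = 0.015). That call was absent with all loci, with the length correction and in each fit whose spread used the knockout pair. Those last fits pooled both knockout libraries, SNHG9 being at 42.1 with and 50.7 without Shld. Of all genes, 29% were called in either direction in the knockout line against parental cells. SNHG10 and EPB41L4A-AS1 were also lower when the wildtype degron line was set against the mutant one, each with a difference of -0.56. In that comparison 2 of the 3 were called lower, beside 17% of all genes. With all loci, or with the spread of both pairs or of the knockout pair, 0 were called there, and 1 with the length correction. Of the 3 tested, 0 were called against parental cells without the parental library with Shld (median -0.59) or with all loci, and 1 with the spread of both pairs or of the knockout pair.

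Protein-coding hosts carry snoRNAs in the introns of genes that mostly encode ribosomal proteins, translation factors and other housekeeping proteins. Of 28 tested, 6 were lower and 2 higher in the wildtype degron line than in parental cells, beside 18.4% lower and 17.7% higher of all genes, with a median of -0.39 against 0.01 for all genes. With the length correction 3 were lower and 1 higher, with a median of -0.37, and with all loci 0 were called. With quantile normalization the median was -0.13 and 7 were lower and 4 higher, with the spread of both pairs 13 were lower, and without the parental library with Shld 0 were called. The largest were RPS13, a small-subunit ribosomal protein gene (-1.24 ± 0.36, limma, adjusted p = 0.0091), and RPL21, a large-subunit one (-1.18 ± 0.34, adjusted p = 0.0092). RPS13 went from 3573 and 2377 rescaled FPKM in the parental pair to 1234 and 1256 in the wildtype degron pair. The 2 higher were PRKDC, the catalytic subunit of the DNA-dependent protein kinase (1.05), and SF3B3, an SF3b subunit (0.49). PRKDC was also higher than in parental cells in the mutant degron line (0.82) and the knockout line (1.02), where SF3B3 (0.68) and NOP58 (0.66) were called as well. Of 9 TOP genes, which here leave out ribosomal proteins, 2 were lower in the wildtype degron line: EEF1B2, an elongation factor subunit and snoRNA host (-0.91), and EIF3E, an initiation factor subunit (-0.72), with a median of -0.45, beside 18.4% of all genes called lower. With quantile normalization 1 was lower and 1 higher, and 0 were called without the parental library with Shld or with all loci. EEF1A1, normally among the most abundant messages of a cell, was listed at a mean of 4.92 and failed the minimum, and RPL4, RPL10 and SMG1 were listed near 0, so a low listed value in this table need not be a low transcript level.

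Of 16 proteins tested that assemble with snoRNAs, 3 were lower in the wildtype degron line than in parental cells, a share close to the 18.4% of all genes: the assembly factor ZNHIT3 (-1.11 ± 0.16, limma, adjusted p = 2.8e-05), the H/ACA core protein NOP10 (-0.72) and the C/D core protein NHP2L1, now named SNU13 (-0.57). Their median was -0.12, and 0.02 with the length correction, where 1 of the 16 was called lower. Without the parental library with Shld 0 were called. In the knockout line against parental cells, where 13.8% of all genes were called higher, 4 were higher and 0 lower: the cap methylase TGS1 (0.67), NOP58 (0.66) and the methylase FBL (0.50), both C/D core proteins, and the assembly factor NUFIP1 (0.63). The median there was 0.28, against -0.02 for all genes. In the fit with the knockout spread and both parental libraries, where both knockout libraries were pooled, 2 of the 16 were called higher. The median was then 0.26, and 0.25 without the parental library with Shld.

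Factors of nonsense-mediated decay, the pathway known to remove host transcripts, gave 4 higher and 0 lower of 14 tested in the wildtype degron line against parental cells, where 17.7% of all genes were called higher. These were NBAS (0.48), UPF1, the central helicase (0.47), its partner UPF2 (0.41) and SMG8 (0.40), each less than 1.5-fold, with a median of 0.09 over the list. UPF1 was listed at 24.1 and 25.2 in the parental pair and 34.5 and 33.6 in the wildtype degron pair. In the knockout line 5 of 14 were higher, beside 13.8% of all genes called higher. The largest differences were those of UPF3B (1.05 ± 0.16, limma, adjusted p = 1.0e-05), NBAS (0.56) and SMG8 (0.47). With the spread taken from the knockout pair and both parental libraries kept, 0 of 14 decay factors were called for the wildtype degron line. For the knockout line, whose libraries were then pooled, 2 were called higher. With the spread of both pairs these counts were 1 and 4. They were 2 and 4 with the length correction, 2 and 4 with quantile normalization, and 0 and 0 with all loci. Fits that also left out a parental library had the knockout spread. Without the one with Shld, the list's median was 0.07 for the wildtype degron line and 0.19 for the knockout line. Without the other parental library, the medians were 0.12 and 0.16. No gene of these lists passed the threshold after withdrawal of Shld in any line.

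**Figure D4:**
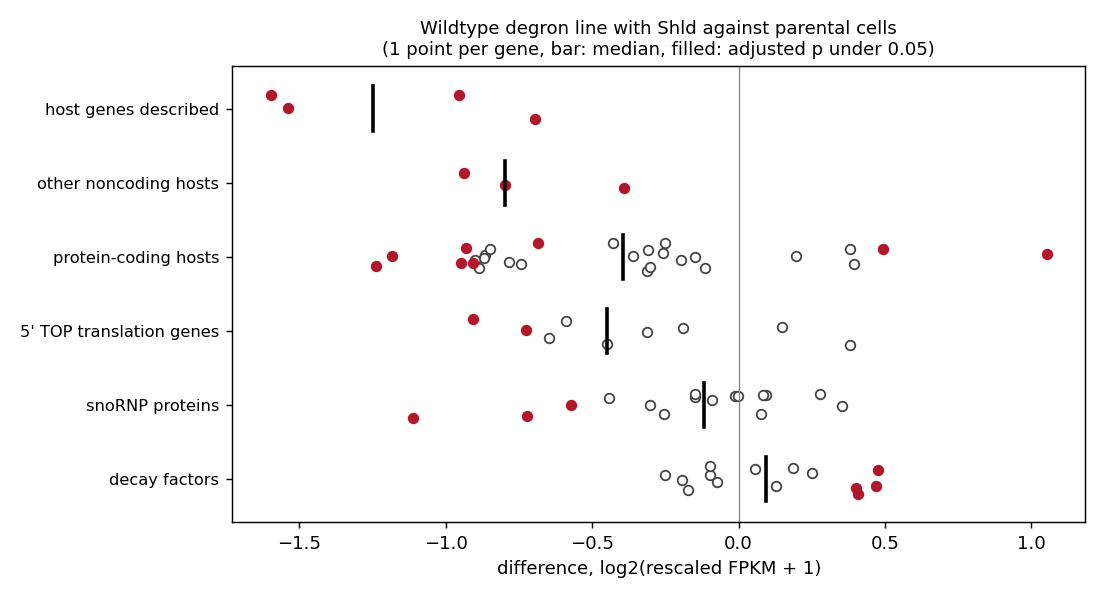
Difference between the wildtype degron line with Shld and parental cells for every gene tested of each list; the horizontal axis is the difference on the log2(rescaled FPKM + 1) scale, each circle is 1 gene, filled where the limma adjusted p was under 0.05, and the bar is the list's median. The 4 host genes (median -1.25) and the 3 other noncoding hosts lie left of 0, and decay factors lie around it (median 0.09).

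Genes outside the list were ranked by their Pearson correlation with the mean of the 4 host genes over the 8 libraries. The 5 most alike were POLR2H, a subunit shared by the RNA polymerases (r = 0.998), FNBP4, a formin-binding protein (0.994), UQCRH, a subunit of respiratory complex III (0.994), RCOR3, a corepressor (0.992), and RPS13 (0.992). POLR2H went from 160 and 135 rescaled FPKM in the parental pair to 85.8 and 84.7 in the wildtype degron pair, with the other 4 libraries between 112 and 125. These are the highest values among all genes tested, over 8 libraries that share lines and scaling, and are given as a description.

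Of 31 snoRNAs listed for the 8 host genes, 21 had a locus of their own name, and 15 of these were listed at 0 in all 8 libraries. Of the 7 belonging to the 4 described hosts, 6 were at 0 throughout, SNORD50B and SNORD12C among them. SNORA24, within SNHG8, was listed at 44.6 in parental cells with Shld, between 10.3 and 19.2 in the knockout and mutant degron libraries, and at 0 in parental cells without Shld and in both wildtype degron libraries. A library of fragmented RNA is not made to capture RNAs this short, so values at 0 say nothing about the snoRNAs themselves. Loci named after a snoRNA of the 4 unmatched hosts were above 0 in all 8 libraries in 4 cases. SNORD76, within GAS5, was listed at 1421 and 975 in the parental pair, 803 and 632 in the knockout pair, 806 and 758 in the mutant degron pair, and 434 and 435 in the wildtype degron pair. SNORD25, within SNHG1, ranged from 58.0 to 169, SNORA16A, within SNHG12, from 58.4 to 130, and SNORA17, within SNHG7, from 55.7 to 84.8. For the first 3 of these the wildtype degron pair was lowest, and for SNORA17 the knockout line without Shld. A locus of this table carries the name it was given, and whether these loci hold the snoRNA or exons of its host cannot be told apart.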

How the data were processed

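RNA of 8 MEL202 libraries was sequenced with paired reads of 100 bases, per the labels' protocols. TopHat, Cufflinks and hg19 are named in the submitters' processing notes, with versions, annotation and strand not given in the sources used here. Values deposited by the authors are FPKM-type levels of 32087 loci, rescaled to a 75th percentile of 10. That FPKM was rescaled is inferred from Cufflinks and the values. Columns were matched to samples by name, and 0 value columns were left unused.

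Levels were tested with limma 3.58.1 (R 4.3.3) applied to log2(value + 1), which understates changes of low genes. Genes with a name and a mean of 5 or more entered (8600), with 1 locus per symbol and without small RNAs. The parental libraries shared a coefficient and gave the spread (1 residual and 23.4 prior degrees of freedom). Every other library had its own coefficient and was assumed to vary like that pair, so p-values reflect only the spread of that pair. That spread may be technical, and it also holds any effect of Shld, in which the pair differs. P-values were adjusted by Benjamini-Hochberg over all genes at 0.05. The 8 comparisons against parental cells, between degron lines and within lines used the same fit. The alternatives were pseudocount, filter, scaling, source of the spread (the fit on the knockout pair with both parental libraries was added after the data had been seen), either parental library left out, the parental change subtracted, and transcript length (GENCODE v29, also added then). Each fit that left out a parental library took its spread from the knockout pair. Where the spread used the knockout pair, the knockout line was the mean of its libraries with and without Shld.

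Scripts were tested on simulated data. The host genes and lists were chosen with earlier results of these data known. From each list up to 3 genes with the largest differences past the threshold are named, with the 5 genes most like the host genes and SF3B1. Further genes in counts of 5 or fewer, and those below the minimum, were named after their values were seen.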

Additional observations from a re-analysis of the deposited data

Results flagged for a closer look

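The locus named SNORD79, a box C/D snoRNA within GAS5, was listed at 1457 rescaled FPKM in the mutant degron line with Shld and at 0 in the other 7 libraries, both parental libraries included. It was flagged because it lies outside the comparisons and above the parental level, it rests on 1 library, and its source was not tested.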

How the results depend on the processing

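Of 70 alternative counts of host genes called, 59 stayed within 1.5 times the count reported and 11 did not, and the cause was not tested. Most of the 59 were counts of 0 that stayed 0, in comparisons where no host gene had been called. Fits whose spread used the knockout pair also replaced the knockout library with Shld by the mean of both knockout libraries. In the wildtype degron line against parental cells the count of 4 became 0 with all loci of a mean of at least 1, 0 without the parental library with Shld (spread from the knockout pair) and 2 with the length correction. In the wildtype against the mutant degron line the count of 2 became 0 with all loci, and 1 with the spread of the parental and knockout pairs or of the knockout pair alone, whether both parental libraries or either one was kept; the parental libraries do not enter that difference. In the knockout line against parental cells the count of 0 became 1 with the spread of both pairs, and 1 with the knockout spread, both with all parental libraries and without the one without Shld.

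Of 280 alternative values for single host genes, 243 kept direction and side of the threshold, 18 lost the call, 4 gained one and 15 changed sign, none of these 15 in a called result. Only a reported call could be lost, and these were 4 in the wildtype degron line against parental cells and 2 against the mutant degron line. Most of the 280 values belong to the other results, which had no call to lose. With the parental change subtracted, withdrawal in the mutant degron line gave 0.56 for SNHG5, 0.24 for SNHG6 and 0.37 for ZFAS1, and in the wildtype degron line 0.21 for SNHG5. With quantile normalization SNHG6 was at 0.013 in the knockout and 0.0037 in the mutant degron line against parental cells, and SNHG8 at 0.087 in the knockout line and -0.00083 for the difference of withdrawals. With both knockout libraries pooled, SNHG8 in the knockout line was at 0.090 with the spread of both pairs or of the knockout pair. Pooled in the same way, it was at 0.013 and 0.17 without the parental library without and with Shld. With the length correction, on the knockout library with Shld alone, it was at 0.24. The length correction also gave 0.062 for SNHG6 in the knockout line and 0.0099 for SNHG8 between the degron lines.

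Calls over all genes differed as well. In the order all loci, spread of both pairs, knockout spread, and knockout spread without the parental library without or with Shld, the 3109 calls of the wildtype degron line against parental cells became 1, 1767, 869, 917 and 2, the 1776 of the mutant degron line 47, 682, 242, 186 and 103, and the 2493 of the knockout line 646, 2324, 1632, 1204 and 624. Between the degron lines 2983 became 25, 1447, 657, 652 and 646. For withdrawal in the knockout line 237 became 24 with all loci, 91 with quantile normalization and 79 with median scaling. For withdrawal in the degron lines and their difference, the 8, 4 and 21 calls ranged over alternatives from 0 to 8, 0 to 24 and 0 to 15. The labels give no pairing of samples beyond the line, because the groups compared share only the replicate number 1. The line itself pairs each library with Shld with its partner without it. An effect of Shld averaged over the 4 lines, with the line as a block, was not fitted.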
